A study of Mus musculus with 36 samples.

Results

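The genes described here were 6 genes of the ureteric bud tip, Ret, Gfra1, Etv4, Etv5, Wnt11 and Spry1, out of 20458 genes with a symbol in a count table of mouse kidney RNA. They were chosen by name as the receptor, coreceptor, nuclear targets, tip ligand and inhibitor of one pathway, and the rule itself uses no measured value, although results of these data were known when it was set. Each gene was read from the RefSeq transcript row with the highest mean count over all 36 libraries. Of the 6 genes, 3 (Ret, Etv4 and Etv5) passed the filter on low counts in both models, Wnt11 had a few reads and stayed under it, and Gfra1 and Spry1 were listed at 0 reads in every library.

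The table covered 2 mouse models of polycystic kidney disease at postnatal days 1, 3 and 7 (P1, P3 and P7). For the deletion of Pkd1, WT stands for animals with floxed Pkd1 alleles and no Cre (Pkd1 f/f), and KO for Pkd1 f/f:HoxB7-Cre. In the other model the same names stand for Pkd2 f/f and Pkd2 f/f:HoxB7-Cre. The HoxB7 promoter limits the Cre recombinase to the collecting duct lineage, so the gene was deleted in that lineage only, and RNA came from the whole kidney. All animals had a C57BL/6 background, and the WT animals, which carry the same floxed alleles, were littermates of the same age. Each of the 12 groups had 3 libraries.

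During kidney development the ureteric bud branches at its tips. Gdnf from the cap of nephron progenitors around each tip binds the coreceptor Gfra1 and the receptor tyrosine kinase Ret on the tip cells, and Ret signalling turns on the transcription factors Etv4 and Etv5 and the secreted ligand Wnt11, which in turn sustains Gdnf in the progenitors. Spry1 is an intracellular inhibitor that holds the pathway in check. In the mouse, branching and the nephron progenitors come to an end in the days after birth, and the HoxB7-Cre lineage is the lineage of these tips.

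Total counts per library ran from 7179152 to 15850818 with a median of 13143336, and values below are TMM-normalized CPM, read counts brought to a common library size over all 36 libraries. The gene targeted in each model was checked first. With Pkd1 deleted, the Pkd1 transcript gave log2 fold changes of KO against WT of -0.20 (P1), -0.07 (P3) and 0.10 (P7), none called. With Pkd2 deleted, the Pkd2 transcript gave -0.21, 0.01 and -0.29, with a call at P7 (265 ± 7.16 against 326 ± 6.41 CPM, SD, n = 3, edgeR adjusted p = 0.0122). These counts take in exons outside the floxed ones and cells without Cre. A set of 4 libraries held chromaffin cell transcripts (sum of Th and Dbh above 10 CPM). They were Pkd1 WT P1 replicate 1, Pkd1 KO P7 replicate 1, Pkd2 WT P3 replicate 2 and Pkd2 KO P7 replicate 3. Transcripts of Y-linked genes were present in 18 libraries (3926 to 5041 counts) and all but absent in 18 (0 to 5 counts), and they were spread unevenly over groups. At P7 they were present in 3 of 3 Pkd1 KO and 0 of 3 Pkd1 WT libraries. From P1 to P7 the number of libraries with them went from 2 to 0 in Pkd1 WT, from 0 to 3 in Pkd1 KO, from 1 to 2 in Pkd2 WT and from 0 to 3 in Pkd2 KO, so in the KO arms P1 and P7 differ in this as well as in age. With a term for them in the fit of all 18 libraries, the fall of Ret, Etv4 and Etv5 from P1 to P7 was still called in each course. That term was set by the groups in which these transcripts varied. They were WT P1 in the Pkd1 model (2 of 3 libraries) and the WT groups in the Pkd2 model. For the KO arms the adjustment was therefore taken from WT libraries. No replicate pair agreed within sampling noise (mean chi-square per transcript at least 5.15 over 36 pairs), and since nothing in the labels says how the 3 libraries of a group were drawn, p-values measure the spread between these libraries.

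How many transcript rows a gene has bears on what could be counted, because a read that fits several overlapping transcripts was given to none of them by the counting used. Among genes with 1 row, 25.9% of 15732 had a mean under 1 read, against 49% of the 4726 genes with 2 or more rows. Etv4 (NM_008815, chr11:101769747-101785310, 13 exons, 2336 exon bases) and Etv5 (NM_023794, chr16:22381313-22439570, 13 exons, 3975 exon bases) had 1 row each. Ret (chr6:118151748-118197744) had 2 rows. All of its reads stood on NM_001080780, whose model has 19 exons and 4497 exon bases, of which 1307 (29.1%) are not shared with the other transcript, NM_009050, which was at 0 although 2266 (41.5%) of its bases are its own. Gfra1 (chr19:58235581-58455946) had 2 rows, with 0 and 226 bases of their own. Spry1 (chr3:37639947-37644599) and Wnt11 (chr7:98835084-98854747) had 4 rows each. Positions are those of GRCm38 (mm10). For Ret, then, the counts follow 1 transcript, and for Gfra1, Spry1 and Wnt11 low expression and reads left out for fitting several rows cannot be told apart.

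Of the members whose values carry the results, Etv5 had sequence upstream of a start site in the RefSeq reference (GRCm38.p6), and it is shown because ETS factors such as Etv5 bind a GGAA core. The first stretch lies upstream of all annotated Etv5 exons (chr16:22439720-22439820, minus strand, 101 bases, 64.4% GC) and is the far part of the window before the start site at 22439570, not the bases next to it, and the second before an inner start site (chr16:22438369-22438618, minus strand, 250 bases, 62% GC). Both are written 5′ to 3′, with GGAA and its reverse complement TTCC in capitals.
Etv5 outer start: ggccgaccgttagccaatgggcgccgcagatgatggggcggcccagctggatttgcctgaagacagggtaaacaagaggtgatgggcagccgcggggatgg
Etv5 inner start: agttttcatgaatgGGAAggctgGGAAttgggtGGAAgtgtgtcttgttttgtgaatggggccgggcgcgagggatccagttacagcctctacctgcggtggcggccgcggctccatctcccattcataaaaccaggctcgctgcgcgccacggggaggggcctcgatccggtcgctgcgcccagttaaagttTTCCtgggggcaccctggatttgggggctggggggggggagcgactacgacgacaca
The outer stretch held neither letter string. The inner one held 3 GGAA and 1 TTCC. Either string occurred in 93.4% of 32851 windows of 250 bases before mouse start sites, with a median of 3 matches per window, so these matches are a description of the sequence only.

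Ret, the receptor of the pathway, was highest at P1 and down to a few reads at P7 in all 4 courses. In Pkd1 WT kidneys it was at 11.04, 11.6 and 19.4 CPM at P1, at 10.5, 7.57 and 8.86 CPM at P3, and at 0.627, 0.611 and 0.369 CPM at P7. In Pkd1 KO kidneys the libraries were at 16.1, 13.6 and 18.8 CPM at P1, at 6.55, 8.18 and 8.02 CPM at P3, and at 2.05, 0.934 and 1.02 CPM at P7. In both arms every P1 library lay above every P3 library and every P3 library above every P7 library. At P7 the values rest on 5 to 9 reads in WT and 12 to 26 reads in KO, so they carry a large counting error.

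The Pkd2 model gave the same end point for Ret. Pkd2 WT libraries were at 6.87, 8.53 and 14.1 CPM at P1, at 7.64, 7.07 and 7.92 CPM at P3, and at 0.226, 0.278 and 1.30 CPM at P7. Pkd2 KO libraries were at 6.83, 7.87 and 7.89 CPM at P1, at 4.45, 6.43 and 6.96 CPM at P3, and at 0.62, 0.378 and 0.855 CPM at P7. Here the P1 and P3 libraries overlapped, and the P7 libraries lay below all of them. The P7 values rest on 3 to 16 reads in WT and 5 to 11 reads in KO.

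**Figure D1:**
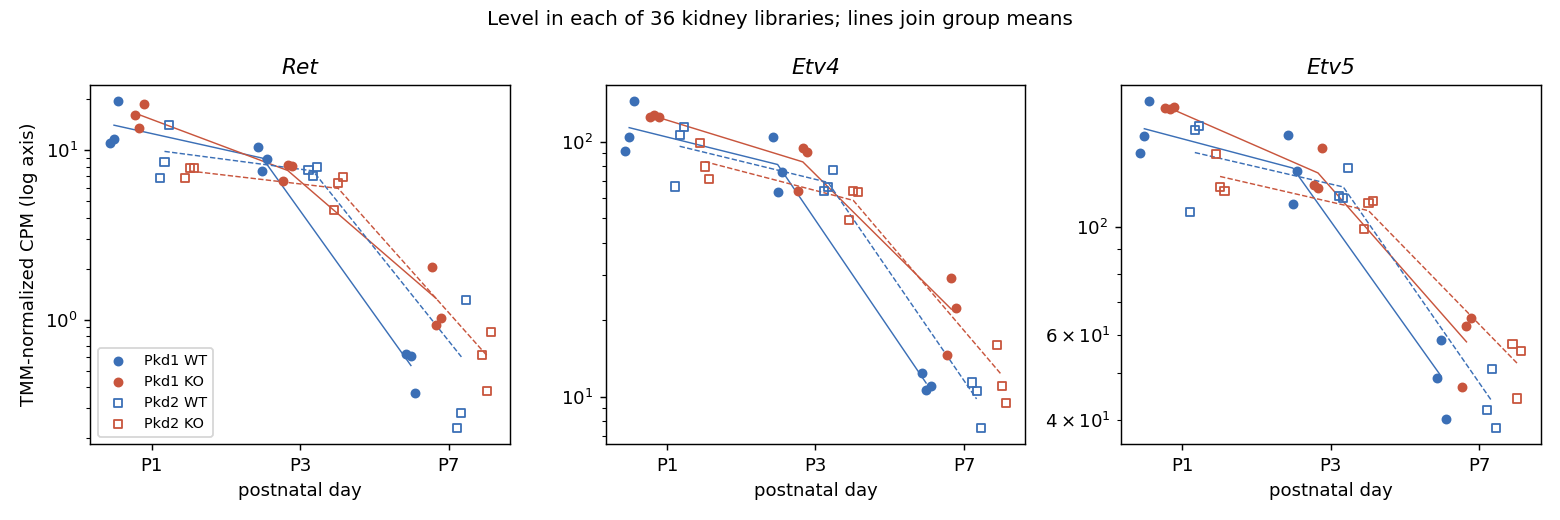
TMM-normalized CPM (log axis) of Ret, Etv4 and Etv5, 1 panel each, by postnatal day in the 36 libraries; filled circles are Pkd1 and open squares Pkd2, blue is WT and red is KO, points are libraries set side by side within a day and lines join group means. In every panel the P7 libraries lie below all P1 and P3 libraries, with Ret at 0.226 to 2.05 CPM at P7.

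The fall of Ret from P1 to P7 passed the test in all 4 courses. The mean level dropped from 14.0 ± 4.67 to 0.535 ± 0.145 CPM in Pkd1 WT (SD, n = 3 at each age), and the fitted log2 fold change was -4.69 (SE 0.34, edgeR quasi-likelihood test, adjusted p = 3.90e-07), that is, 25.9-fold lower. In Pkd1 KO the drop was from 16.2 ± 2.61 to 1.34 ± 0.621 CPM (log2 fold change -3.59, SE 0.31, edgeR adjusted p = 1.21e-06). In Pkd2 WT it was from 9.83 ± 3.77 to 0.601 ± 0.605 CPM (-4.05, SE 0.47, edgeR adjusted p = 3.10e-05). In Pkd2 KO it was from 7.53 ± 0.606 to 0.618 ± 0.238 CPM (-3.59, SE 0.47, edgeR adjusted p = 6.47e-05). In whole-kidney RNA, a smaller share of tip cells in the kidney and less Ret RNA per tip cell cannot be told apart.

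Gfra1, the coreceptor that presents Gdnf to Ret, was listed at 0 reads on both of its rows in all 36 libraries. No level, course or comparison can be given for it.

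Etv4, an ETS transcription factor induced by Ret signalling, followed the receptor downwards. In Pkd1 WT kidneys it was at 92.2, 104 and 144 CPM at P1, at 104, 63.7 and 76.3 CPM at P3, and at 12.4, 10.6 and 10.98 CPM at P7. In Pkd1 KO kidneys it was at 125, 127 and 125 CPM at P1, at 64.3, 94.2 and 91.2 CPM at P3, and at 14.5, 29.3 and 22.3 CPM at P7. The KO libraries of P1 were close to each other and above all P3 libraries, while in WT the highest P3 library lay within the range of P1.

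The means of Etv4 in the Pkd2 model kept the same order of ages. Pkd2 WT libraries were at 66.6, 106 and 114 CPM at P1, at 63.9, 66.2 and 77.4 CPM at P3, and at 11.4, 10.5 and 7.55 CPM at P7. Pkd2 KO libraries were at 98.9, 79.8 and 71.5 CPM at P1, at 49.1, 64.0 and 63.2 CPM at P3, and at 16.0, 11.1 and 9.48 CPM at P7. The P7 libraries lay below all earlier ones in both arms.

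Etv4 fell significantly from P1 to P7 in each course. The log2 fold change was -3.33 (SE 0.25) in Pkd1 WT, -2.51 (SE 0.24) in Pkd1 KO, -3.29 (SE 0.23) in Pkd2 WT and -2.78 (SE 0.23) in Pkd2 KO, with edgeR adjusted p-values of 3.90e-07, 2.56e-06, 4.16e-07 and 8.28e-07. Expressed as folds, the P7 level was 10.1-fold lower than at P1 in Pkd1 WT and 5.69-fold lower in Pkd1 KO, and 9.75-fold and 6.85-fold lower in Pkd2 WT and KO.

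Etv5, the close relative of Etv4 that acts with it at the tip, fell less steeply. In Pkd1 WT kidneys it was at 142, 154 and 182 CPM at P1, at 155, 112 and 130 CPM at P3, and at 48.9, 58.6 and 40.2 CPM at P7. In Pkd1 KO kidneys it was at 176, 175 and 177 CPM at P1, at 122, 120 and 145 CPM at P3, and at 46.7, 62.4 and 64.8 CPM at P7. The lowest P3 library was still above the highest P7 library in each arm.

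The Pkd2 model showed the same shape for Etv5. Pkd2 WT libraries were at 107, 159 and 161 CPM at P1, at 116, 115 and 132 CPM at P3, and at 42.0, 50.9 and 38.6 CPM at P7. Pkd2 KO libraries were at 142, 121 and 119 CPM at P1, at 98.9, 112 and 113 CPM at P3, and at 57.4, 44.3 and 55.6 CPM at P7. The log2 fold change of P7 against P1 was -1.70 (SE 0.16) in Pkd1 WT, -1.60 (SE 0.15) in Pkd1 KO, -1.70 (SE 0.15) in Pkd2 WT and -1.28 (SE 0.15) in Pkd2 KO, with edgeR adjusted p-values of 2.79e-06, 2.88e-06, 3.24e-06 and 2.44e-05. Etv5 thus kept 30.9%, 33% and 30.8% of its mean P1 level at P7 in Pkd1 WT, Pkd1 KO and Pkd2 WT and 41.3% in Pkd2 KO.

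Wnt11, the ligand secreted by tip cells, had between 0 and 9 reads in a library on the best of its 4 rows. In Pkd1 WT kidneys it had 6, 0 and 0 reads at P1, 0, 1 and 0 at P3, and 3, 4 and 0 at P7. In Pkd1 KO kidneys it had 2, 6 and 2 reads at P1, 4, 2 and 2 at P3, and 0 in each library at P7. The Pkd2 WT libraries had 1, 9 and 5 reads at P1, 8, 0 and 5 at P3, and 4, 2 and 0 at P7, and the Pkd2 KO libraries had 0, 1 and 2, then 1, 4 and 1, then 0, 3 and 1. Counts this low were under the filter, and no course was detectable from them.

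Spry1, the inhibitor of receptor tyrosine kinases that restrains Ret in the bud, was listed at 0 reads on all 4 of its rows in every library. Its level and course cannot be described from this table.

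All 3 members tested were called lower at P7 than at P1 in each course, where the share of all tested transcripts called lower was 13.2% in Pkd1 WT, 20.5% in Pkd1 KO, 13.6% in Pkd2 WT and 10.4% in Pkd2 KO (of 12527 tested transcripts for Pkd1 and 12633 for Pkd2). The median log2 fold change of the 3 members was -3.33, -2.51, -3.29 and -2.78 in that order, beside medians between -0.01 and 0.01 over all transcripts tested. They were also all called lower at P7 than at P3, where the background was 9.4%, 20.8%, 14.7% and 7.71%. Over these last 4 days, the log2 fold change of Ret was -4.03 in Pkd1 WT, -2.49 in Pkd1 KO, -3.66 in Pkd2 WT and -3.23 in Pkd2 KO. For Etv4 it was -2.84, -1.91, -2.81 and -2.26, and for Etv5 -1.42, -1.15, -1.46 and -1.03, in the same order.

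Between P1 and P3 no member passed the test in any course, against 0.0479%, 0.128%, 0.633% and 0.871% of all tested transcripts called lower. Ret gave log2 fold changes of -0.66, -1.10, -0.39 and -0.36 (edgeR adjusted p = 0.242, 0.073, 0.613 and 0.702). Etv4 gave -0.50, -0.60, -0.48 and -0.52 (edgeR adjusted p = 0.283, 0.201, 0.219 and 0.215). Etv5 gave -0.29, -0.45, -0.24 and -0.25. All these estimates were below 0. At an unadjusted p under 0.05 there were 2 members in Pkd1 WT (Ret and Etv4), 3 in Pkd1 KO, and 1 in each arm of the Pkd2 model (Etv4), and DESeq2 called 1, Ret in Pkd1 KO. Ret in Pkd1 KO was also called without Pkd1 WT P1 replicate 3 (edgeR adjusted p = 0.0401) and without the libraries with chromaffin transcripts (edgeR adjusted p = 0.0476).

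**Figure D2:**
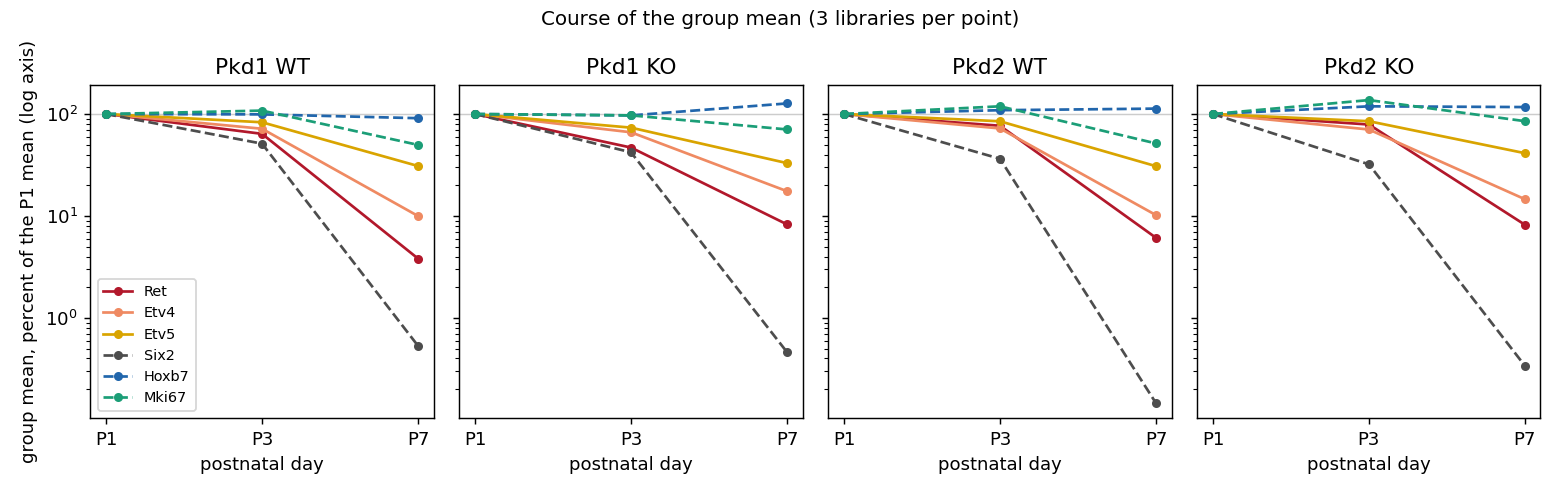
Mean level at each age as a percent of the mean level at P1 (log axis), for Ret, Etv4 and Etv5 in the 4 courses, 1 panel each, with Six2, Hoxb7 and the cell cycle gene Mki67 as dashed lines. Ret ends at 3.82% to 8.27%, Etv4 at 9.99% to 17.5% and Etv5 at 30.8% to 41.3% of the P1 level, while Six2 ends under 1% and Hoxb7 at 91% to 127%.

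As a percent of the P1 mean, the larger part of the fall came after P3, except for Ret in Pkd1 KO, where it came before. The interval from P3 to P7 was longer than that from P1 to P3, so these parts are not rates per day. Ret kept 63.9% of its P1 mean at P3 in Pkd1 WT, 46.9% in Pkd1 KO, 76.7% in Pkd2 WT and 78.9% in Pkd2 KO, and at P7 it kept 3.82%, 8.27%, 6.11% and 8.2%. Etv4 kept 71.7%, 66.2%, 72.2% and 70.5% at P3 and 9.99%, 17.5%, 10.2% and 14.6% at P7. Etv5 kept 83%, 73.5%, 84.9% and 85% at P3. The order of the 3 genes by what was left at P7, with Ret lowest and Etv5 highest, was the same in all 4 courses.

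Hoxb7, a transcription factor gene expressed along the whole ureteric bud lineage, showed no such fall and stood at P7 at 91%, 127%, 113% and 117% of its P1 mean. Six2, which marks the nephron progenitors that supply Gdnf, fell further than Ret, to 0.532%, 0.462%, 0.146% and 0.339%. At P3 Six2 was already down to 51.2%, 42.1%, 36.4% and 32.1%. Over the 5 nephron progenitor markers the summed level was between 119 and 197 CPM at P1 and between 43 and 55.8 CPM at P7. Of them, 3, 4, 3 and 3 were called lower at P7 in the 4 courses. Cell cycle genes moved with age as well, with 6, 5, 6 and 1 of 6 called lower. Of 8 tested trunk and collecting duct markers, the list that holds Hoxb7, 4, 3, 2 and 2 were called higher and 0, 2, 0 and 2 lower. The part of progenitor number and of cell division in the course of the tip genes was not tested.

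Whether deletion of Pkd1 changed the tip genes was asked at each age from the 3 KO and 3 WT libraries. At P1 and P3 none was called, on a background of 0% (0 of 12527 transcripts) at P1 and 0.00798% at P3. The log2 fold change of KO against WT at P1 was 0.19 for Ret, 0.13 for Etv4 and 0.13 for Etv5, and at P3 it was -0.25, 0.03 and -0.04. No member had an unadjusted p under 0.05 at either age, and DESeq2 called none. Over all transcripts at P1, 161 had an unadjusted edgeR p under 0.05 and DESeq2 called 2. These fits took replicate numbers as unpaired. With the numbers as a block at P1, 5 transcripts were called and no member. The intervals of ±2 SE for Etv5 were -0.07 to 0.33 at P1 and -0.28 to 0.20 at P3, and those for Ret were wider, -0.31 to 0.69 and -0.62 to 0.12.

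At P7 Etv4 was higher in Pkd1 KO kidneys. All 3 KO libraries (14.5, 29.3 and 22.3 CPM) lay above all 3 WT libraries (12.4, 10.6 and 10.98 CPM), with means of 22.0 ± 7.38 and 11.3 ± 0.954 CPM (SD, n = 3). The log2 fold change was 0.96 (SE 0.26, 1.94-fold, edgeR adjusted p = 0.0468), close to the threshold, on a background of 6.2% of transcripts called higher. It was no longer called when any of the 3 WT libraries, KO replicate 2 or KO replicate 3 was left out (adjusted p 0.055 to 0.158), and it was 0.69 without KO replicate 2, the highest library.

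Ret differed in the same direction at P7 without passing the test. Its KO libraries (2.05, 0.934 and 1.02 CPM) lay above its WT libraries (0.627, 0.611 and 0.369 CPM). The log2 fold change was 1.29 (SE 0.52, edgeR adjusted p = 0.121), with an interval of ±2 SE from 0.26 to 2.33. Etv5 gave 0.23 (SE 0.18, edgeR adjusted p = 0.402) and its groups overlapped.

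**Figure D3:**
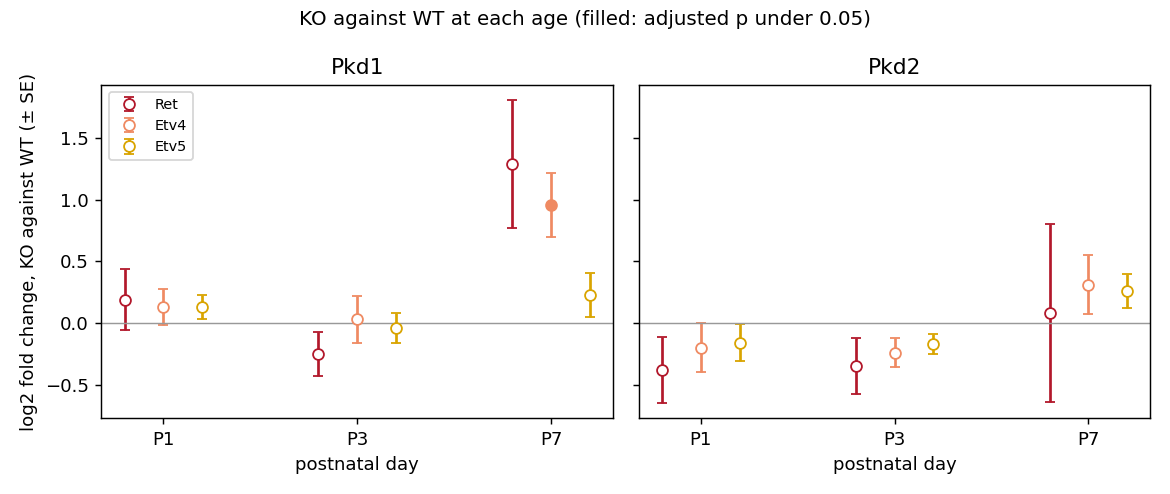
Log2 fold change of KO against WT for Ret, Etv4 and Etv5 at P1, P3 and P7 (left panel Pkd1, right panel Pkd2); points are fitted values, bars are ±1 SE and filled points were called. Etv4 at P7 with Pkd1 deleted (0.96) is the filled point, and the bar of Ret at P7 is the widest in both panels.

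Other measures stood apart between the same libraries at P7 in the Pkd1 model. Y-linked transcripts were present in all KO and in no WT library, so that genotype and this difference cannot be told apart there. Pkd1 KO P7 replicate 1, with Th at 154 and Dbh at 139 CPM, was the highest of its group for Ret and the lowest for Etv4. Without it Etv4 gave 1.20 (SE 0.22, edgeR adjusted p = 0.0348) and Ret 0.86 (SE 0.54, edgeR adjusted p = 0.337). The summed level of 11 trunk and collecting duct markers was between 1317 and 1476 CPM in KO and between 2055 and 2271 CPM in WT, and of the 8 tested 1 was called higher and 3 lower. The water channel genes Aqp2 and Aqp3 were called lower in KO (log2 fold change -2.28 and -1.19), and Hoxb7 was called higher (0.52, edgeR adjusted p = 0.0291), a call lost in 7 of 14 alternatives. All 4 tested proximal tubule markers were called lower (median -1.28) and 2 of 6 cell cycle genes higher. The part of these in the Etv4 difference was not tested.

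In the Pkd2 model no member was called at any age, on a background of 0% at P1 and at P3 and of 7.82% higher and 6.06% lower at P7. The log2 fold changes of Ret, Etv4 and Etv5 were -0.38, -0.20 and -0.16 at P1 and -0.35, -0.24 and -0.17 at P3. Over all transcripts 708 had an unadjusted edgeR p under 0.05 at P1 and 563 at P3, and DESeq2 called 33 and 38. At P7 Ret gave 0.08 (SE 0.72), Etv4 0.31 (SE 0.24) and Etv5 0.26 (SE 0.14), with edgeR adjusted p-values of 0.961, 0.431 and 0.247, and all 3 pairs of groups overlapped. The interval of Etv4 at P7 ran from -0.16 to 0.79. No member had an unadjusted p under 0.05 at any age, and DESeq2 called none.

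The difference between the KO and WT courses was tested directly, as the change from P1 to P7 in KO minus that in WT. In the Pkd1 model it was 1.10 for Ret (SE 0.45, edgeR adjusted p = 0.134), 0.82 for Etv4 (SE 0.33, edgeR adjusted p = 0.121) and 0.10 for Etv5 (edgeR adjusted p = 0.791), where 7.75% of all transcripts were called in either direction. None passed the test. Ret and Etv4 had an unadjusted p under 0.05, and DESeq2 called none. Without the libraries with chromaffin transcripts, a setting chosen after the data were seen, Etv4 passed (1.18, edgeR adjusted p = 0.0449). This was the only call in 25 alternatives. The Pkd1 libraries left out were the lowest of their groups for Etv4 (92.2 CPM in WT P1 and 14.5 CPM in KO P7). Y-linked presence also differed across this contrast, from 0 to 3 libraries in KO and from 2 to 0 in WT. In the Pkd2 model the differences were 0.46, 0.51 and 0.42 (edgeR adjusted p = 0.788, 0.462 and 0.34), on a background of 1.3%, with no unadjusted p under 0.05 and no DESeq2 call.

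The models were also compared with each other. The KO effect at P7 was larger in the Pkd1 than in the Pkd2 model by 1.24 for Ret (SE 0.9, edgeR adjusted p = 0.498) and 0.66 for Etv4 (edgeR adjusted p = 0.385), and differed by -0.01 for Etv5 (edgeR adjusted p = 0.981). None was called, and the background was 0% (0 of 12343 transcripts). Of these, 2130 had an unadjusted p under 0.05 and DESeq2 called 406, none of them a member. The count of 0 rests on 1 library, since 1461 transcripts (11.9%) were called without Pkd1 WT P7 replicate 3. The WT courses of the models differed by -0.63 for Ret, -0.04 for Etv4 and 0.01 for Etv5, again with 0% of transcripts called by edgeR, 492 at an unadjusted p under 0.05 and 2 by DESeq2. For Etv5 the interval of that difference was -0.50 to 0.51, and for Ret it was -2.16 to 0.90. The call of Etv4 in the Pkd1 model and its absence in the Pkd2 model is therefore not shown to be a difference between the models.

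**Figure D4:**
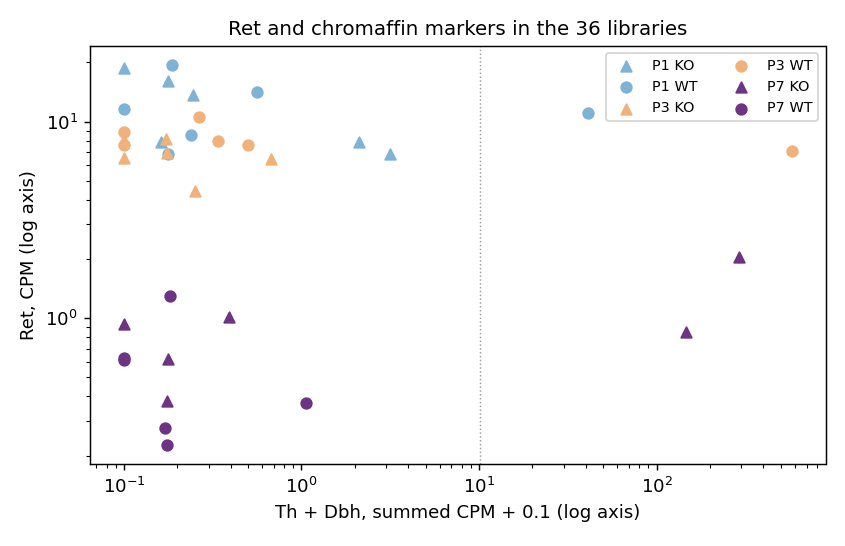
Ret level against the summed level of the chromaffin genes Th and Dbh in each of the 36 libraries plus 0.1 (both in CPM, log axes); circles are WT, triangles are KO, and colours mark the age. The dotted line marks a sum of 10 CPM, and the 4 libraries to its right have Ret between 0.855 and 11.04 CPM, while the other 32 have Th at no more than 2.9 CPM.

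Ret is also made by neural crest cells, and the adrenal gland lies on the kidney, so the libraries with Th and Dbh were set beside the others. In the 3 libraries of later ages Star, a gene of adrenal steroid synthesis, was at 346, 987 and 333 CPM, against 7.29 to 15.1 CPM in the 32 libraries without chromaffin transcripts. In Pkd1 WT P1 replicate 1 Star was at 10.1 CPM with Dbh at 32.7 CPM. Ret in these 4 libraries was at 11.04 (Pkd1 WT P1), 2.05 (Pkd1 KO P7), 7.07 (Pkd2 WT P3) and 0.855 CPM (Pkd2 KO P7). It was the highest of its group in both P7 libraries and the lowest in the other two. Without all 4 libraries the log2 fold change of Ret from P1 to P7 was -4.84, -4.03, -4.08 and -3.90 in Pkd1 WT, Pkd1 KO, Pkd2 WT and Pkd2 KO, and it was called each time.

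Other genes of the pathway were followed over the same courses, grouped by role. They are given as counts called, beside the background of calls higher at P7, which was 12.6% in Pkd1 WT, 19.3% in Pkd1 KO, 13.1% in Pkd2 WT and 12.5% in Pkd2 KO, and of calls lower, given above. Counts below follow that order of courses.

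Of 7 GDNF family ligands and other coreceptors, 3 were tested for Pkd1 and 4 for Pkd2, and none was called between P1 and P7. Nrtn, the ligand neurturin, gave -0.40, 0.20, -0.52 and -0.13. Gdnf itself, which has several rows, was under the filter. At P7 Gfra2, the coreceptor of neurturin, was called lower in Pkd2 KO than in WT (log2 fold change -1.78, SE 0.47, edgeR adjusted p = 0.0435), a call that was lost in 10 of 15 alternatives. It was 1 of 4 tested, beside 6.06% of all transcripts called lower. The means were low, 0.434 CPM in KO and 1.53 CPM in WT. Over all libraries Gfra2 had 0 to 24 reads on the best of its 3 rows.

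Among 9 other tip genes linked to Ret signalling, 7 were tested, of which 3, 3, 4 and 3 fell and 0, 0, 0 and 1 rose. Sox9, a transcription factor needed for branching, fell by 1.72, 0.92, 2.16 and 0.93 on the log2 scale. Cxcr4, the receptor of the chemokine Cxcl12, fell by 1.31, 1.48, 1.8 and 1.57, and Lhx1, a homeobox gene of tip and early nephron, by 1.81, 1.94, 1.83 and 0.93. Mmp14, a membrane matrix metalloproteinase, was the gene that rose (0.30 in Pkd2 KO).

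**Figure D5:**
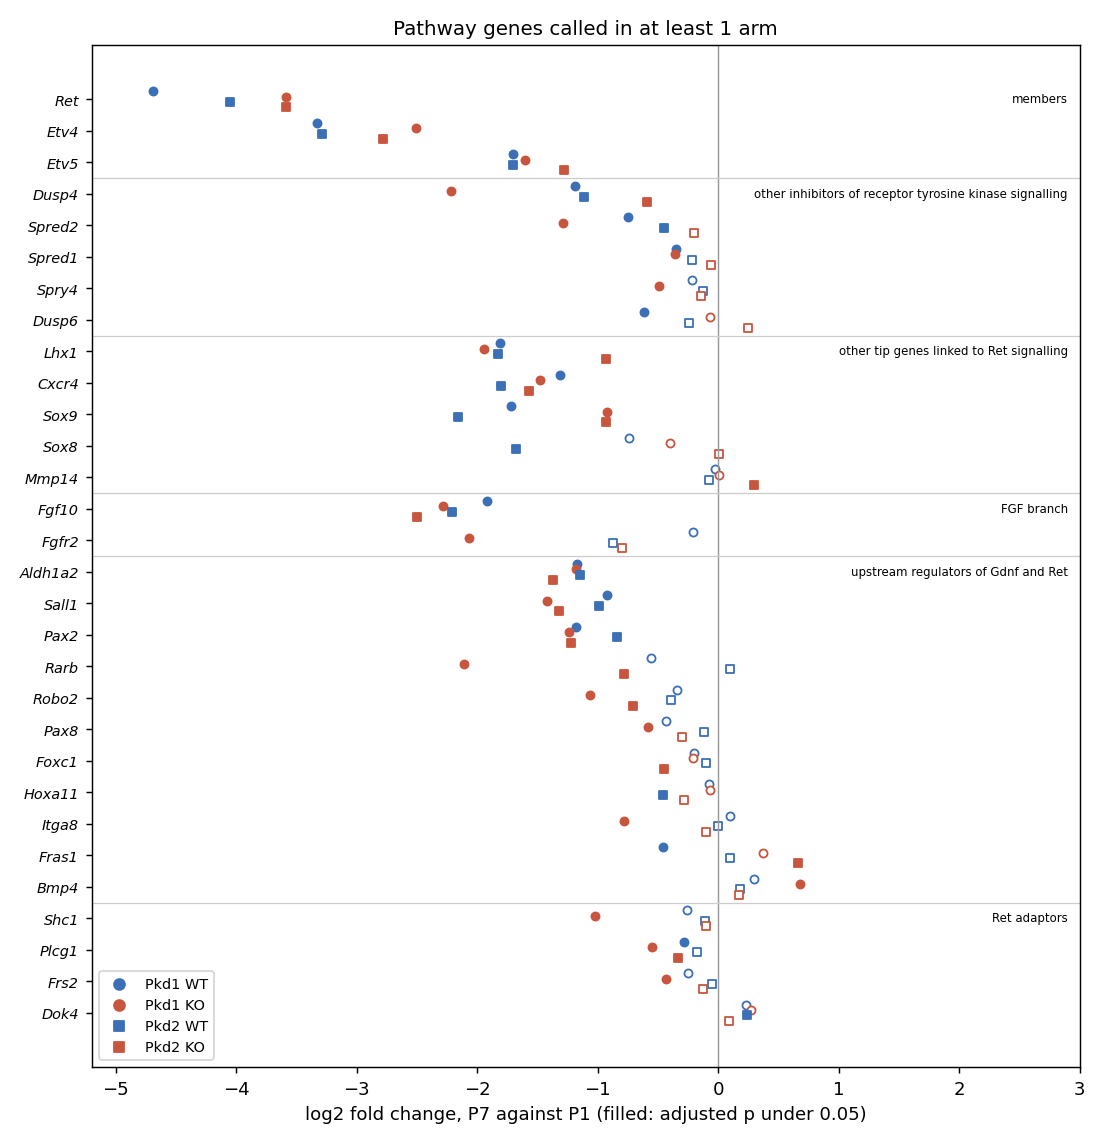
Log2 fold change of P7 against P1 (horizontal axis) for the members and for each other pathway gene called in at least 1 course, grouped by role; circles are Pkd1 and squares Pkd2, blue is WT and red is KO, and filled points were called. The 3 members lie between -4.69 and -1.28 with all points filled. All points of Fgf10 (-2.50 to -1.92) and Cxcr4 lie in the same range, and so do some but not all points of Sox9, Lhx1 and Dusp4.

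At P7, 3 of the 7 tested genes of this list differed by genotype in the Pkd2 model, all higher in KO, where 7.82% of all transcripts were called higher. Ret, Etv4 and Etv5 were not called there. In whole-kidney RNA the cells that carry the difference cannot be told. Sox9 gave 1.16 (SE 0.26, edgeR adjusted p = 0.0258), Lhx1 0.62 (SE 0.17, edgeR adjusted p = 0.048) and Mmp14 0.43 (SE 0.09, edgeR adjusted p = 0.0167). The median of the 7 genes was 0.43, beside 0.00 over all transcripts. These calls were lost in 3 (Sox9), 6 (Lhx1) and 3 (Mmp14) of 15 alternatives. In the same libraries 5 of 6 cell cycle genes were called higher and 4 of 4 tested proximal tubule markers lower, and their part in the result was not tested. In the Pkd1 model none of the 7 was called and their median was 0.09 beside -0.01, on a background of 6.2% higher and 7.54% lower. There Sox9 gave 0.88 (SE 0.36, edgeR adjusted p = 0.126).

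The 6 other inhibitors of receptor tyrosine kinase signalling were all tested, and 4, 4, 2 and 1 fell. Dusp4, a phosphatase of MAP kinases, fell in each course, by 1.19, 2.22, 1.11 and 0.59 on the log2 scale. Spred2, a relative of the Sprouty proteins, fell by 0.75, 1.29 and 0.45 in the first 3 courses, and Spred1 by 0.35 and 0.36 in the Pkd1 arms. Dusp6, which inactivates ERK and is itself induced by ERK signalling, fell by 0.62 in Pkd1 WT and gave -0.07 in Pkd1 KO. None of the 6 was called for the KO minus WT course of the Pkd1 model, beside 7.75% of all transcripts. At P7 Dusp6 was called higher in Pkd1 KO than in WT (0.58, SE 0.12, edgeR adjusted p = 0.0234), lost in 4 of 14 alternatives. It was 1 of 6 tested, beside 6.2% of all transcripts called higher, and the median of the 6 was -0.06.

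Of 4 genes of the FGF branch, which acts beside Gdnf on the tip, 3 were tested, and 1, 2, 1 and 1 fell. Fgf10, a ligand from the mesenchyme, fell by 1.92, 2.28, 2.21 and 2.50 on the log2 scale. Its receptor gene Fgfr2, with 2 rows and 12 to 171 reads per library on the one used, was called lower in Pkd1 KO (by 2.07). The median of the 3 tested genes was -2.15 in Pkd2 KO with 1 called, so a fall particular to Pkd1 KO is not shown. Of 8 adaptors that bind activated Ret, 6 were tested, with 1, 3, 0 and 1 falling and 0, 0, 1 and 0 rising. Plcg1, a phospholipase, fell by 0.28, 0.55 and 0.33 in Pkd1 WT, Pkd1 KO and Pkd2 KO, and Dok4 rose by 0.24 in Pkd2 WT.

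Of 19 upstream regulators of Gdnf and Ret, 14 were tested for Pkd1 and 15 for Pkd2. In the 4 courses 4, 7, 4 and 6 fell and 0, 1, 0 and 1 rose. Pax2, a transcription factor of the nephric lineage, fell by 1.18, 1.24, 0.84 and 1.22 on the log2 scale, and Sall1, a zinc finger factor of the cap, by 0.92, 1.42, 0.99 and 1.32. Aldh1a2, the enzyme that makes retinoic acid in the stroma, fell by 1.17, 1.18, 1.15 and 1.37. Bmp4 rose in Pkd1 KO (0.68) and Fras1, an extracellular matrix gene, in Pkd2 KO (0.66).

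At P7, 2 of the 14 upstream regulators tested in the Pkd1 model and 2 of the 15 in the Pkd2 model were called between KO and WT, shares close to those over all transcripts (6.2% higher and 7.54% lower, and 7.82% and 6.06%). Gata3, a transcription factor of the ureteric lineage needed for Ret expression, was higher in KO (0.66, SE 0.18, edgeR adjusted p = 0.0477), and Itga8, an integrin of the cap that supports Gdnf expression, was lower (-0.73, SE 0.19, edgeR adjusted p = 0.0408). In the Pkd2 model Fras1 was higher (0.54, SE 0.14, edgeR adjusted p = 0.0399) and Foxc1, a repressor that limits the Gdnf domain, was lower (-0.42, SE 0.08, edgeR adjusted p = 0.0147). The calls were lost in 5 (Gata3) and 6 (Itga8) of 14 alternatives and in 5 (Fras1) and 3 (Foxc1) of 15. The medians of the list were -0.05 and -0.21, beside -0.01 and 0.00 over all transcripts.

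The genes most like Ret over the 36 libraries were ranked by Pearson's r of log2 CPM among 12002 genes. They were Cdh2 (r = 0.964), Kif5c (0.96), Six2 (0.954), Lamp5 (0.949), Rprm (0.949), Bmper (0.949), Fbn2 (0.948) and Capn6 (0.942). Cdh2 encodes N-cadherin. Its mean fell from 74.6 CPM at P1 to 23.8 CPM at P7 in Pkd1 WT and from 61.0 to 22.3 CPM in Pkd2 WT. Among the members, r was 0.955 between Ret and Etv4, 0.954 between Ret and Etv5 and 0.982 between Etv4 and Etv5. All these libraries share the same ages, so r describes a common course and nothing more, and for Wnt11, under the filter, it was not computed.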

How the data were processed

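The authors sequenced total RNA of whole kidneys (Trizol) on an Illumina HiSeq and, per the labels and the study's methods, called bases with CASAVA 1.8.2, aligned reads to mm10 with TopHat 2.1.0 and counted them per RefSeq transcript with HTSeq at default options. The deposited values are raw counts per transcript row (29996 rows, of which 28978 carry a symbol, 36 libraries of 7179152 to 15850818 counts). The pathway members and all gene lists were chosen with earlier results of these data known.

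Transcripts reaching 10 counts in 3 or more of a model's 18 libraries were tested with edgeR 4.0.16 (TMM, quasi-likelihood, Benjamini-Hochberg threshold 0.05, R 4.3.3). Courses and their KO minus WT difference came from one fit of the 18 libraries. KO against WT at one age used its 6 libraries, and the models were compared with 12 libraries. The intervals are ±2 SE. Named were all members, from each list and comparison up to 4 genes with the smallest adjusted p, the deleted genes and the 8 genes most like Ret; other named genes were chosen after their values were seen. Folds are fitted, and levels are CPM after TMM over 36 libraries. The r used log2 CPM with a prior count of 2. Exon bases came from the reference annotation of GRCm38, matched by transcript identifier, and 117 of 117 list genes were found (1 tip gene is not reported here). DESeq2 1.42.0, RLE factors, no filter, a replicate block, counts summed per gene, a 2-fold minimum, Y-linked presence as a model term, only the 6 libraries compared (or all 18) and each library left out were tried as alternatives. Chosen after seeing the data were leaving out the 4 libraries with chromaffin transcripts and TMM factors of 6 libraries. The edgeR fit of Pkd1 KO against WT at P7 was tried on simulated counts of transcripts with a mean of at least 10 counts. The other fits and lower counts were not simulated.

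Equal replicate numbers were checked as pairs by the correlation of deviations from the group means. These ran from -0.19 to 0.52, and every correlation of a pair of groups was over 0.1 in 1 of 10 pairs of groups, Pkd1 KO and WT at P1. The reported results at P1 do not use these pairs. The fit with a replicate block stands beside them as an alternative.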

Additional observations from a re-analysis of the deposited data

Results flagged for a closer look

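In 9 genes of the pathway, kidney cell type and cell cycle lists the course from P1 to P7 differed between Pkd1 KO and WT by the interaction test (edgeR, adjusted p under 0.05), while Ret, Etv4 and Etv5 did not pass it. Over all transcripts tested, 7.75% were called in this contrast in either direction. In the pathway lists the log2 difference, KO minus WT, was 0.83 for Fras1 (SE 0.22), -0.88 for Itga8 (SE 0.25) and 0.80 for Gata3 (SE 0.24). These belong to the 14 upstream regulators tested. In the other pathway lists, with 3, 6, 7, 3 and 6 genes tested, none was called. Among the markers it was -1.14 for the collecting duct water channel gene Aqp3, -1.45 and -1.77 for the proximal tubule endocytic receptor genes Lrp2 and Cubn, -0.70 for the endothelial receptor gene Kdr, and 0.77 and 0.51 for the cell cycle genes Cdk1 and Mki67. The calls of Itga8, Gata3 and Fras1 were lost in 17, 16 and 9 of 25 alternatives. The chromaffin gene Th and all 4 Y-linked genes also passed this test. With Y-linked presence as a model term none of the 9 was called, and of all transcripts 0 were called. In the Pkd1 model this presence varied within the WT P1 group only (2 of 3 libraries). From P1 to P7 it went from 0 to 3 libraries in KO and from 2 to 0 in WT. The fit can therefore hardly separate it from the course difference. Whether Y-linked presence or a weaker test took the calls away was not tested. Groups of 3 libraries were too small for the search for single outlying libraries.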

How the results depend on the processing

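All calls of Ret, Etv4 and Etv5 for P7 against P1 and for P7 against P3 held, with the same direction, under every alternative run. For P7 against P1 the log2 fold change of Ret ranged from -4.84 to -4.38 in Pkd1 WT and from -5.23 to -3.67 in Pkd2 WT. The number of members called changed in 3 comparisons. For P3 against P1 in Pkd1 KO it went from 0 to 1 (Ret) with DESeq2 and without the libraries with chromaffin transcripts, and ranged from 0 to 1 with one library left out. For the KO minus WT course of the Pkd1 model it went from 0 to 1 (Etv4) without the libraries with chromaffin transcripts. For Pkd1 KO against WT at P7 it went from 1 to 0 with the replicate block (Etv4 adjusted p = 0.101) and with a 2-fold minimum, to 2 with all 18 libraries (Ret adjusted p = 0.0159), and ranged from 0 to 1 with one library left out. Over 14 alternatives the adjusted p of Etv4 there ran from 0.00579 to 0.158, with a call in 8. For Pkd1 KO against WT at P1, where equal numbers went together, the block changed no call of a member, and 5 transcripts of all were called against 0. Apart from Etv4 the replicate block changed no other member call.

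Values that changed sign were not called. With one library left out, Etv5 ranged from -0.03 to 0.25 for the KO minus WT course of the Pkd1 model, Etv4 from -0.12 to 0.24 and Etv5 from -0.14 to 0.09 for Pkd1 KO against WT at P3, and Ret from -0.31 to 1.25 for Pkd2 KO against WT at P7 (the highest without Pkd2 WT P7 replicate 3, and -0.21 without the libraries with chromaffin transcripts). For the difference between models of the KO effect at P7, Etv5 ranged from -0.13 to 0.13 (0.16 without those libraries). For the difference between models of the WT course, Ret ranged from -1.01 to 0.54 (the highest without the same replicate), Etv4 from -0.20 to 0.17 (0.26 with the Y covariate), and Etv5 from -0.14 to 0.18 (-0.0043 with DESeq2, -0.0044 with RLE factors, -0.01 with the replicate block, -0.07 without those libraries). The cause was not tested.

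Counts over all transcripts moved more. With Y-linked presence as a model term, 1012 against 3228 were called for P7 against P1 in Pkd1 WT, 638 against 4978 in Pkd1 KO, 1549 against 2892 in Pkd2 KO, and 0 against 971 for the KO minus WT course of the Pkd1 model. For P7 against P3 it was 62 against 2042 in Pkd1 WT and 1130 against 2098 in Pkd2 KO. That term was set by WT groups only, and by WT P1 alone in the Pkd1 model. Whether Y-linked presence or a weaker test gave these drops was not tested. For P3 against P1 DESeq2 called 382, 428, 632 and 591 against 55, 54, 181 and 214. Pkd1 KO against WT at P7 gave 1721, and 2763 with DESeq2, 712 with the block, 452 without the libraries with chromaffin transcripts and 3882 with all 18, and with one library left out it ran from 224 (without WT replicate 1) to 3228 (without WT replicate 3), with 341 without KO replicate 2. The count of 971 ran from 322 (without Pkd1 KO P1 replicate 2) to 2186 (without Pkd1 WT P7 replicate 3). Pkd2 KO against WT at P7 gave 1753, and 822 without them. DESeq2 gave 1651 against 971 and 491 against 164 for the KO minus WT courses of the Pkd1 and Pkd2 models, and 248 against 1 for Pkd1 KO against WT at P3. The Y covariate could not be fitted for Pkd1 KO against WT at P3 and P7, where each group was uniform or the term equalled the genotype. Ret at P7 (3 to 26 reads) and Wnt11 (0 to 9 reads) rest on few reads. For Wnt11, low expression and reads left out for fitting several rows cannot be told apart.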
